A study of Mus musculus with 4 samples.

Results

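The genes described here are Trp53, the negative regulators of its product and a group of its arrest targets in mouse embryonic fibroblasts (MEF cells). They were chosen by symbol from the deposited table of read counts: Trp53, Mdm2, Mdm4, Ppm1d, Cdkn1a, Ccng1, Zmat3, Btg2, Plk2 and Phlda3, which are 10 of the 47937 genes in that table. All 10 had a row, and all 10 passed the filter on low counts. The study sequenced total RNA from wild-type MEF cells that were left untreated and from wild-type MEF cells exposed to 50 μM genistein for 24 h, with 2 libraries in each group, to profile how this isoflavone acts on the transcription of satellite and other repeats. From a pathway analysis of the gene responses in these libraries, the study also reported p53 signaling among the stress and damage pathways that genistein activated. Genistein is a plant isoflavone known as a tyrosine kinase inhibitor and topoisomerase II poison. The labels name no vehicle for the untreated cells. In other experiments of the paper, such as its RNA-FISH, untreated cells were given DMSO alone. The labels also do not say whether the libraries of a group came from separate cultures, so that the p-values measure only the spread between these libraries. There is a single dose and a single time, and the libraries report RNA and not protein. In bulk RNA, fewer cells of a type and less RNA per cell cannot be told apart.

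p53, the product of Trp53, is a transcription factor that is held at a low level in unstressed cells because Mdm2, a ubiquitin ligase, marks it for degradation. Mdm4, a relative of Mdm2 with little ligase activity of its own, binds p53 and masks its activation domain, and Ppm1d, the phosphatase also called Wip1, removes the phosphates that damage kinases place on p53. Mdm2 and Ppm1d are p53 targets themselves, so that p53 feeds back on its own activity. The arrest side of the response is best known through Cdkn1a, which encodes the cyclin-dependent kinase inhibitor p21.

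p53 binds as a tetramer to a consensus made of 2 half-sites of 10 bases, each with a core of 4 bases. The windows of 300 bases around annotated start sites, 250 bases before and 50 bases after each start, were searched for the p53 consensus without a spacer. The consensus reads the same on both strands, so that one search covers both. The best sites of the 3 genes that rose most and of the 2 that fell are shown so that the RNA values below can be read beside them. Capitals mark the core of each half-site, and the bases run 5′ to 3′ on the strand of the gene (RefSeq, GRCm38.p6).
Cdkn1a, 1 mismatch, plus strand, chr17:29090928-29090947: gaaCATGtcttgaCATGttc
Ccng1, 1 mismatch, minus strand, chr11:40755462-40755481: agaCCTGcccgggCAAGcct
Btg2, 4 mismatches, minus strand, chr1:134079112-134079131: gggAAAGtccgggCAGAgcc
Trp53, 3 mismatches, plus strand, chr11:69580284-69580303: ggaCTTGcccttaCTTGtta
Plk2, 5 mismatches, plus strand, chr13:110395038-110395057: gctCTTGctcgcaCAAGcga

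The Cdkn1a site lay from position -51 to -32 relative to the upstream of its 2 annotated start sites, and 2822 bases before the downstream one. The Ccng1 site lay from -195 to -176. With at most 1 mismatch, Cdkn1a and Ccng1 were the 2 genes with a match among the 9 that had a window, and the same 2 matched when 2 mismatches were allowed. Zmat3 had no window. Over all 32851 windows, 29 held a match with at most 1 mismatch, which is 0.0883%, and 0.798% held one with at most 2. Btg2, whose rise below could not be separated from that of Ccng1, had a best site with 4 mismatches, from position 24 to 43 after its start, and 30.2% of all windows held a site with at most 4. The best site of Trp53 had 3 mismatches, and 6.29% of all windows held a site with at most 3. The best site of Plk2 had 5 mismatches, the median of all windows, and 76.6% of windows held a site at least as close. The other windows of the 10 genes had best sites with 3 to 6 mismatches. These are matches of letters within a short window and not measured binding, and known elements in introns, such as that of Mdm2, lie outside it.

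**Figure D1:**
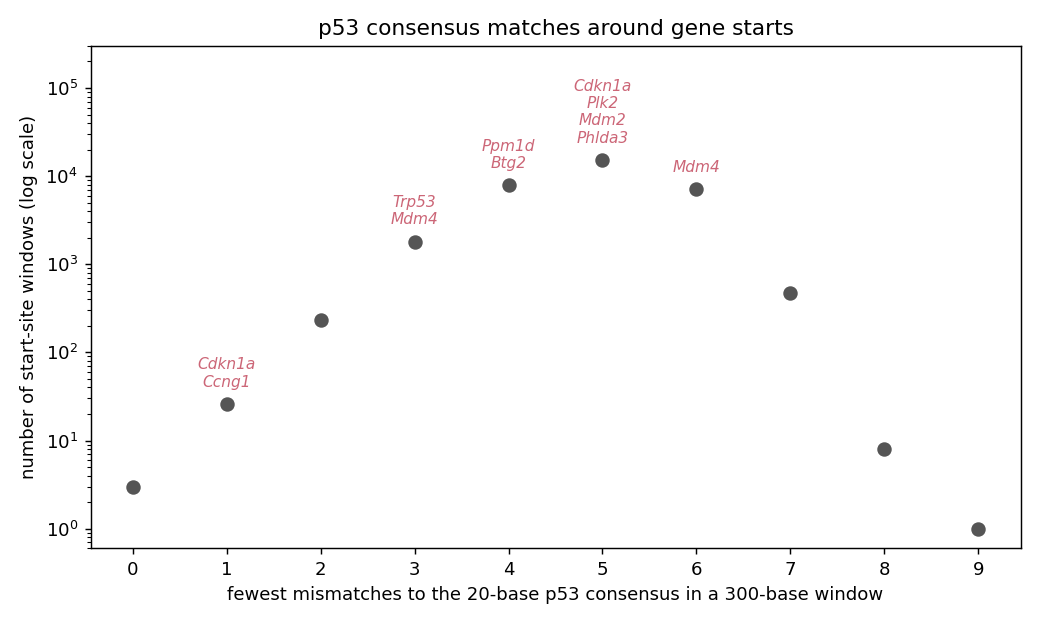
The number of start-site windows (log axis) is plotted against the fewest mismatches to the 20-base p53 consensus found in each window of 300 bases. Dark points count all 32851 windows, and the gene names mark the windows of the p53 feedback and arrest genes, with Cdkn1a and Ccng1 at 1 mismatch and Cdkn1a and Mdm4 named again for their second window.

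Of the 10 genes, 8 rose with genistein and 2 fell at an adjusted p under 0.05 (edgeR, quasi-likelihood test). Over the 16240 genes tested, 33.5% rose and 38.2% fell at that threshold, 5436 and 6210 genes. This balance of all genes depended on the scaling, since library totals gave 6085 higher and 5530 lower, and TMM factors from genes alone gave 5867 and 5815. With the filters of the study added, an absolute log2 fold change above 1 and a mean normalized read count above 100, 7 of the 10 genes were higher and 0 lower, against 3.92% and 4.16% of all tested genes. The median log2 fold change of the 10 genes was 1.39, and that of all tested genes was -0.03. The untreated and genistein libraries overlapped for none of the 10 genes. They did not overlap either, with genistein higher, for 40.7% of all tested genes and, with genistein lower, for 44.6%. Normalized read counts are raw counts divided by the effective size of the library and multiplied by the mean effective size of the 4 libraries.

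**Figure D2:**
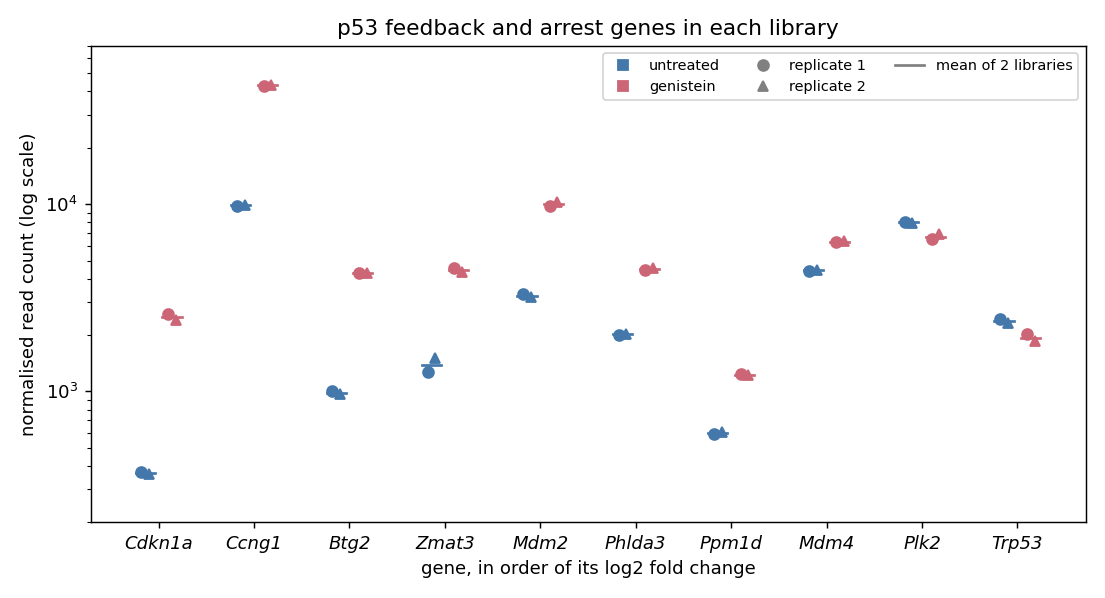
Normalized read counts (log axis) of the 10 genes in each library are plotted in order of log2 fold change, with circles for replicate 1, triangles for replicate 2 and short lines for the mean of 2 libraries. Cdkn1a shows the widest distance between untreated (blue) and genistein (red) libraries, and Plk2 and Trp53 are the genes whose genistein libraries lie lower.

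Trp53 itself fell. This gene (ENSMUSG00000059552, plus strand, chr11:69580359-69591873) had 2426 and 2332 normalized read counts in untreated MEF cells, and genistein left 2024 and 1851. Both genistein values were below both untreated values. The level in untreated cells was 1.23 times that with genistein (log2 fold change -0.30 ± 0.05 SE, 95% interval -0.39 to -0.20, adjusted p = 2.1e-05, edgeR). A pseudogene, Trp53-ps, had 1 raw count in 1 untreated library and 0 in the others.

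Among the negative regulators, all 3 rose, and by different amounts. Mdm2 (ENSMUSG00000020184, minus strand, chr10:117688875-117710758) had 3308 and 3187 normalized read counts in untreated cells and 9776 and 10256 with genistein. It rose 3.08-fold (log2 fold change 1.62 ± 0.04 SE, 95% interval 1.54 to 1.71, adjusted p = 3.5e-15, edgeR). Ppm1d (ENSMUSG00000020525, plus strand, chr11:85311244-85347066) had 589 and 605 counts in untreated cells and 1236 and 1219 with genistein, the lowest counts of the 3. Its log2 fold change of 1.04 ± 0.06 SE (adjusted p = 7.4e-11, edgeR) lay just above the fold filter of the study, with a 95% interval of 0.92 to 1.16 that includes 1. When tested against a log2 fold change of 1 instead of 0, Ppm1d did not pass (adjusted p = 0.725, edgeR glmTreat), whereas the other 6 genes above the filter did, with adjusted p-values of at most 7.8e-04. By that test and the count filter, 2.51% of all tested genes were higher. Mdm4 (ENSMUSG00000054387, minus strand, chr1:132959484-133030561) had 4404 and 4462 counts in untreated cells and 6246 and 6354 with genistein. It rose 1.42-fold, with a log2 fold change of 0.51 ± 0.03 SE (adjusted p = 3.6e-10, edgeR) below the filter. The pseudogene Gm29257 lies on the opposite strand within Mdm4, shares 0 exon bases with it and had 2 to 8 raw counts per library, and Mdm4-ps had 4 to 21.

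The 3 regulators thus moved unequally, which is also visible within each library. Ratios were formed from counts per kilobase of annotated exon, a scale that allows for the annotated length of a gene and on which the size of the library cancels. The level of Mdm2 was 2.19 and 2.08 times that of Mdm4 in the untreated libraries and 4.56 and 4.70 times with genistein. Relative to Trp53, Mdm2 went from 1.08 and 1.09 to 3.84 and 4.41, Mdm4 from 0.496 and 0.523 to 0.844 and 0.938, and Ppm1d from 0.310 and 0.330 to 0.779 and 0.839. For each of these ratios the lower genistein value exceeded the higher untreated value. With 2 libraries against 2, an exact permutation test cannot give a p below 0.333, so that no test was run on the ratios.

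Of the 6 arrest targets, 5 rose and Plk2 fell. Cdkn1a (ENSMUSG00000023067, plus strand, chr17:29090976-29100727) had 369.6 and 360.0 counts in untreated cells and 2597 and 2399.9 with genistein. Its 6.85-fold rise was the largest of the 10 genes and ranked 113 among all 16240 tested genes (log2 fold change 2.78 ± 0.06 SE, 95% interval 2.65 to 2.90, adjusted p = 9.1e-16, edgeR). In a later annotation than that of the counts, an unclassified transcript model on the opposite strand, AC167363.2, covers 273 bases or 7.68% of the Cdkn1a exons. The kit marks strand, but whether the count used it is not stated.

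Ccng1, which encodes cyclin G1, a partner of the PP2A phosphatase that acts on Mdm2, was the most abundant of the 10 genes. It lies on the minus strand at chr11:40748552-40755311 (ENSMUSG00000020326) and had 9762 and 9927 counts in untreated cells and 42806 and 43350.1 with genistein. It rose 4.38-fold (log2 fold change 2.13 ± 0.05 SE, adjusted p = 1.5e-15, edgeR). Btg2, an antiproliferative adaptor of the CCR4-NOT deadenylase (ENSMUSG00000020423, minus strand, chr1:134075170-134079120), rose by nearly the same factor from lower counts. Its values were 1002 and 964 in untreated cells and 4303 and 4282 with genistein, a 4.36-fold rise (log2 fold change 2.13 ± 0.04 SE, adjusted p = 1.7e-16, edgeR).

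Zmat3, a zinc finger RNA-binding protein also called Wig1 (ENSMUSG00000027663, minus strand, chr3:32334792-32366014), had the widest gap between libraries of a group. Its untreated libraries held 1277 and 1500.2 counts, 0.23 apart on the log2 scale, and its genistein libraries 4575 and 4315. The 3.21-fold rise was well beyond that gap (log2 fold change 1.68 ± 0.06 SE, adjusted p = 1.9e-13, edgeR). Phlda3, a pleckstrin homology domain protein that competes with Akt for membrane lipids (ENSMUSG00000041801, plus strand, chr1:135766119-135769136), had 2008 and 2020.0 counts in untreated cells and 4459.7 and 4541 with genistein. It rose 2.23-fold (log2 fold change 1.16 ± 0.04 SE, adjusted p = 7.0e-14, edgeR).

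Plk2, a polo-like kinase of centriole duplication that is known as a p53 target, was the exception among the arrest targets. The gene (ENSMUSG00000021701, plus strand, chr13:110395046-110400844) had 8059.6 and 7967 counts in untreated cells and 6523 and 6888 with genistein. The level in untreated cells was 1.20 times that with genistein (log2 fold change -0.26 ± 0.04 SE, 95% interval -0.34 to -0.17, adjusted p = 2.0e-05, edgeR). Both genistein libraries were below both untreated libraries, as they were for Trp53.

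The order of the changes was resolved only in part. Each of the 4 pairs of an untreated and a genistein library gives a log2 fold change for a gene, and the range over the pairs was compared between neighbours in the order. For Cdkn1a this range was 2.70 to 2.85, above that of each of the other 9 genes. Ccng1 (2.11 to 2.15) and Btg2 (2.10 to 2.16) overlapped, as did Zmat3 (1.52 to 1.84) and Mdm2 (1.56 to 1.69), and Plk2 (-0.31 to -0.21) and Trp53 (-0.39 to -0.20). The ranges of Phlda3, Ppm1d and Mdm4 were each apart from those of their neighbours. The 95% intervals of Phlda3 (1.09 to 1.23) and Ppm1d (0.92 to 1.16) overlapped, however, so that the order of these genes is not settled. The 4 libraries and their pairs are not independent of each other, and the ranges are a description.

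Scaled for exon length, the 10 genes also changed places among themselves. On a scale per length (TPM, computed here from the gene counts and the exon lengths), Ccng1 was highest in untreated cells, with a mean of 220.2, followed by Plk2 at 140.2, Phlda3 at 101.5, Mdm2 at 50.2, Trp53 at 46.2, Btg2 at 28.2, Mdm4 at 23.5, Ppm1d at 14.8 and Zmat3 at 9.54. Cdkn1a was lowest at 8.07 ± 0.126 (SD, n = 2). No neighbours in this untreated order overlapped between libraries. With genistein, Ccng1 reached 1059.9 ± 42.7 (SD, n = 2), and Phlda3 followed at 249, Mdm2 at 170.3, Btg2 at 135, Plk2 at 129, Cdkn1a at 60.7, Trp53 at 41.3, Mdm4 at 36.8, Zmat3 at 33.6 and Ppm1d at 33.4. Btg2 and Plk2 overlapped there, and so did Zmat3 and Ppm1d. Among all genes with an exon length, Cdkn1a moved from rank 9308 to rank 1911 and Ccng1 from rank 551 to rank 88. Of the 2 genes that fell, Trp53 moved from rank 2803 to rank 2945. Plk2 moved up from rank 881 to rank 811, although its mean on this scale was lower with genistein. The summed normalized counts of the 10 genes went from 33205 and 33325 to 84545 and 85454, and Ccng1 alone made up 29.4% and 29.8% of that sum in untreated cells and 50.6% and 50.7% with genistein.

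Since p21 acts by binding cyclins, their kinases and Pcna, the level of Cdkn1a was also set beside those of its partners and of its relative Cdkn1b, which encodes the inhibitor p27. Per length, Cdkn1a stood at 0.239 and 0.232 of Cdkn1b in the untreated libraries and at 1.84 and 1.62 with genistein, so that the order of these inhibitor RNAs turned over. Its ratio to Cdk2 went from 0.292 and 0.289 to 3.19 and 2.91, its ratio to Cdk1 from 0.0553 and 0.0534 to 0.509 and 0.471, and its ratio to Cdk4 from 0.0226 and 0.0225 to 0.271 and 0.248. The partners themselves also moved. Of 12 partner genes, 10 fell (83.3%, against 38.2% of all tested genes) and 1 rose (8.33%, against 33.5%) at an adjusted p under 0.05. Their median log2 fold change was -0.66. Ccne1 (-1.61) and Ccne2 (-1.41), the E-type cyclins of S phase entry, fell most, followed by Ccna2 (-0.79), the cyclin of S and G2, and Cdk4 (-0.75), the kinase of the D-type cyclins. Ccnd2, a D-type cyclin, was higher by 0.13 on the log2 scale (adjusted p = 0.014, edgeR), but without untreated replicate 1 it did not pass (adjusted p = 0.176, edgeR). Ccnb1, the mitotic cyclin, was the 1 partner that did not pass.

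**Figure D3:**
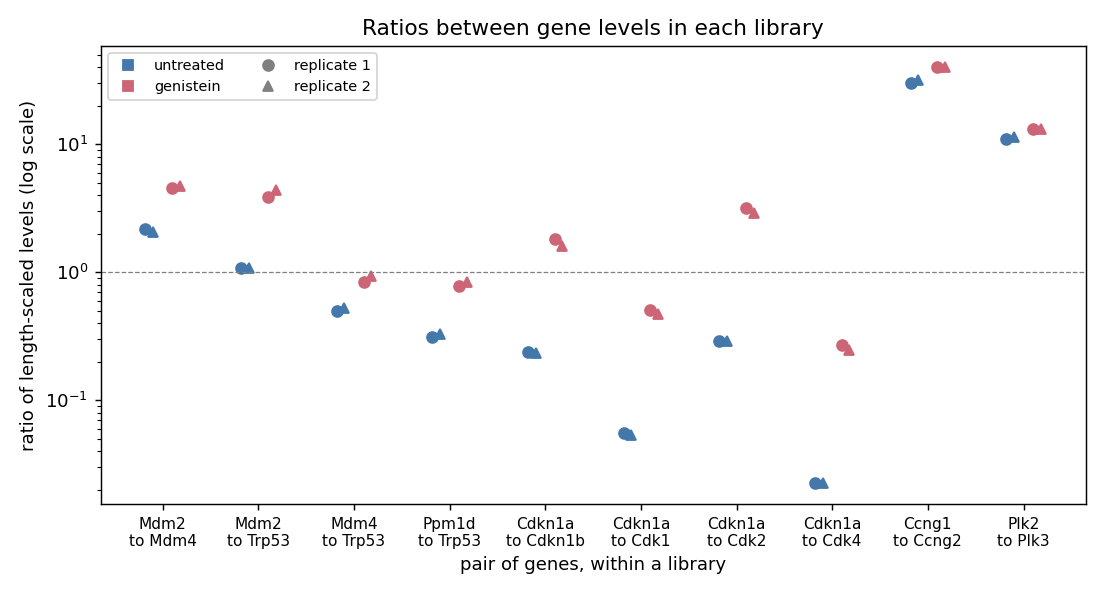
Ratios between the length-scaled levels of 2 genes within a library (log axis) are plotted for 10 pairs, with blue for untreated and red for genistein, circles for replicate 1 and triangles for replicate 2. The dashed line marks equal levels, which Cdkn1a crosses against Cdkn1b and Cdk2, and the genistein libraries lie above the untreated libraries for every pair shown.

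p21 is known to repress cell cycle genes through DREAM, a complex of RB-like, E2F and MuvB proteins. Of 10 such genes, 8 fell (80%, against 38.2% of all tested genes) and 2 rose (20%, against 33.5%). Their median log2 fold change was -0.34. The number that fell was 7 with DESeq2, with library totals, with TMM factors from genes alone and when untreated replicate 1 or genistein replicate 2 was left out. Mybl2, the B-Myb factor of late cell cycle genes, fell from 2327 and 2329 to 972 and 910.0 counts (log2 fold change -1.31 ± 0.05 SE, adjusted p = 5.2e-13, edgeR). Mcm5 of the replicative helicase (-0.60), Bub1b of the spindle checkpoint (-0.49) and Cdca8 of the chromosomal passenger complex (-0.46) fell by less. The 2 that rose were E2f1 (0.65), an S phase transcription factor, and Ccnb2 (0.19), a mitotic cyclin, so that the list did not move as one. The study found by flow cytometry that the same genistein exposure moved most cells into G2/M of the cell cycle. Whether that shift or p21 had a part in the changes of the p21 partners and DREAM genes was not tested.

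A list of 32 other p53 targets, with roles in apoptosis, metabolism and repair, moved mostly upward. Of these, 29 rose (90.6%, against 33.5% of all tested genes) and 2 fell (6.25%, against 38.2%). By the filters of the study 17 were higher and 0 lower, against 3.92% and 4.16% of all tested genes. The median log2 fold change of the list was 1.09. Trp53inp1, a stress-induced partner of p53, rose from 741 and 723 to 10799 and 10882 counts, a log2 fold change of 3.89 that exceeded that of Cdkn1a. Eda2r, a receptor of the TNF family (2.51), Perp, a membrane protein of p53-dependent apoptosis (2.40), and Sesn2, an inhibitor of mTORC1 (2.09), followed. The 2 that fell were Fdxr, a mitochondrial ferredoxin reductase (-0.69), and Tigar, a phosphatase of glycolysis (-0.28). Dram1, a lysosomal protein of autophagy, did not pass (log2 fold change 0.16, adjusted p = 0.157, edgeR). With library totals 30 of the targets were higher, and with DESeq2 26 were. In the start-site windows, Gtse1 and Rps27l were the 2 of 25 such targets with a consensus match at 1 mismatch or fewer, and their log2 fold changes were 0.87 and 0.12, below those of Cdkn1a and Ccng1 with as many mismatches. No window of the regulators, relatives, p21 partners or DREAM genes held one. Since 0.0883% of all windows did, the absence from lists this small says little.

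**Figure D4:**
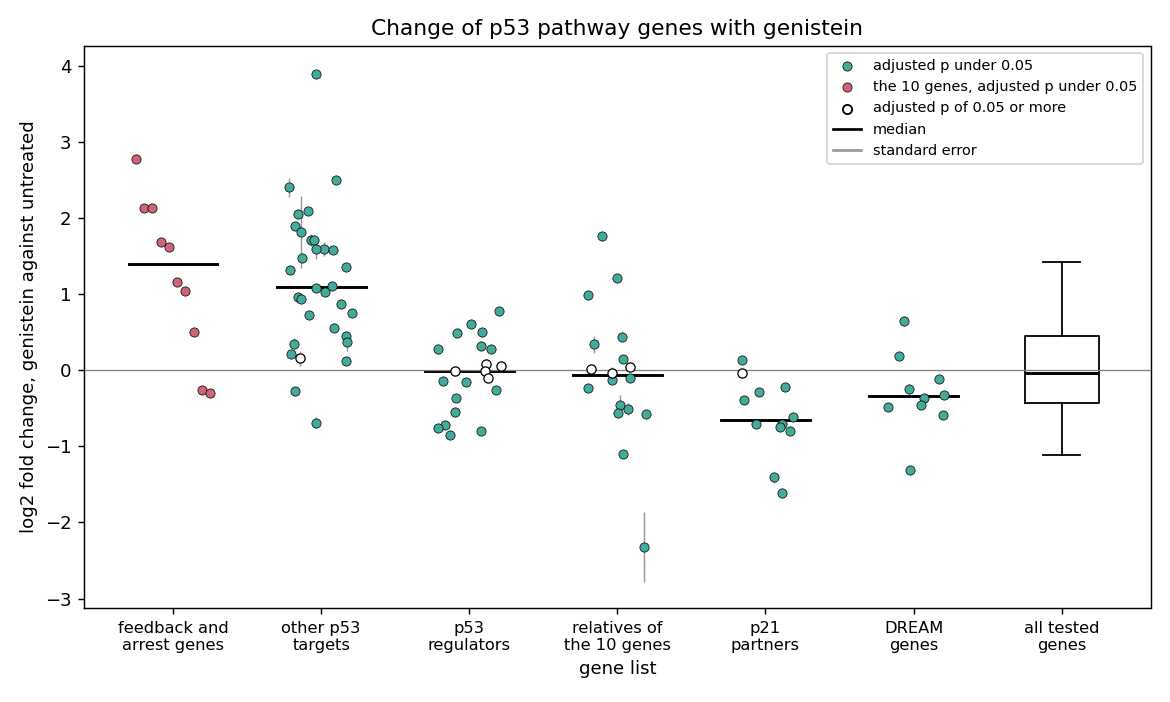
The log2 fold change of each tested gene is plotted by list, with filled points for an adjusted p under 0.05, open points for other genes, grey lines for the standard error and black lines for the median. The box for all tested genes spans the quartiles with whiskers at the 5th and 95th percentiles, and the medians of 1.39 and 1.09 for the feedback and arrest genes and the other p53 targets stand above the other lists.

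A list of other p53 regulators was called at shares near those of all tested genes. Of 21 kinases, ligases, deubiquitinases, cofactors and Mdm2-binding proteins, 7 rose (33.3%, against 33.5% of all genes), 9 fell (42.9%, against 38.2%) and 5 did not pass, with a median log2 fold change of -0.02, whose sign turned with the scaling, and 0 past the filters of the study in either direction. With library totals or TMM factors from genes alone, 8 rose and 8 fell. Prkdc, the catalytic subunit of DNA-PK (0.77), the ubiquitin ligases Rchy1 (0.61) and Trim24 (0.48), and the SUMO ligase Pias1 (0.50) rose most. Usp10 (-0.86) and Usp7 (-0.80), deubiquitinases known to act on p53 and Mdm2, fell most, followed by Rpl5 (-0.77) and Rpl11 (-0.72), ribosomal proteins that bind Mdm2. The values of the ribosomal protein genes are uncertain, since their processed pseudogenes can share reads with them. Cdkn2a, which encodes the Mdm2 inhibitor p19ARF and the kinase inhibitor p16, had 1778 and 1649 counts in untreated cells and 1533 and 1577 with genistein (log2 fold change -0.14, adjusted p = 0.013, edgeR). This call was lost without untreated replicate 1 (adjusted p = 0.154, edgeR) and without genistein replicate 1 (adjusted p = 0.081, edgeR). It was lost also with library totals (adjusted p = 0.210, edgeR), with TMM factors from genes alone and with genes tested without repeats (both 0.072), and with DESeq2 (0.052).

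The relatives of the 10 genes did not follow them as a group. Of 21 relatives, 18 passed the filter on low counts, and of these 6 rose (33.3%, near the share of all genes), 9 fell (50.0%) and 3 did not pass the test, with a median log2 fold change of -0.07 that lay at 0.00071 when scaled by library totals. The number that fell was 7 with DESeq2, library totals, TMM factors from genes alone or without genistein replicate 1. Ccng2, the closest relative of Ccng1, rose from 504 and 482 to 1666 and 1670.1 counts (log2 fold change 1.76), and the length-scaled ratio of Ccng1 to Ccng2 went from 30.1 and 32.0 to 39.9 and 40.3. Btg1 (0.99) and the more distant Tob1 (1.21) and Tob2 (0.44), antiproliferative relatives of Btg2, also rose. Ppm1g, a phosphatase of the Ppm1d family, fell (-1.10), as did the polo-like kinases Plk4 (-0.57), Plk1 (-0.56) and Plk3 (-0.51). The fall of Plk3 exceeded that of Plk2, and the ratio of Plk2 to Plk3 went from 10.9 and 11.4 to 13.2 and 13.3. Cdkn1b differed by -0.10 (adjusted p = 0.045, edgeR), a call that was lost without untreated replicate 1 (adjusted p = 0.084, edgeR), without untreated replicate 2 (0.086) and without genistein replicate 1 (0.349). With library totals its log2 fold change was -0.027 (adjusted p = 0.616, edgeR), with TMM factors from genes alone -0.053 (0.251), and neither genes tested without repeats (0.254) nor DESeq2 (0.131) gave a call. Phlda1 had a log2 fold change of -0.04 that did not pass the test, and its sign turned with the scaling. Trp63, a p53 relative of epithelia, fell by 2.33 on the log2 scale from only 23 and 16 raw counts to 3 and 5. Trp73 (0 to 1 raw counts per library) and Cdkn1c (0 to 2) were at or under 3 raw counts in every library, the limit that a count of 0 allows, and Phlda2 was not tested either.

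The libraries held 28591958 to 31464284 counts over genes and repeats, of which 12.0% to 14.6% lay in repeats. Libraries of a group correlated at r = 0.995 across the tested genes (log2 of the normalized count plus 1), and libraries of different groups at 0.957 to 0.961. Genes are not independent replicates. The MEF label was checked against marker lists. The summed normalized counts of 10 fibroblast markers were 428160 and 439980 in untreated cells and 418070 and 408900 with genistein, with Thy1 and Lum at or under 10 raw counts in every library. Of the 8 fibroblast markers tested, 6 fell, Pdgfrb most (log2 fold change -0.73), and Dcn (1.08) and Fn1 (0.20) rose. In the lists of other cell types, some markers were also at or under that count. They were Pecam1 and Cdh5 of endothelium, Epcam and Cdh1 of epithelium, Ptprc and Adgre1 of macrophages, Myod1, Myog and Myh3 of muscle, and Map2 and Sox2 of the neural lineage. The rest were above it in some library. From untreated to genistein, Csf1r went from 125 and 126 to 335 and 356 normalized counts, and Cd68 from 83.9 and 65.6 to 211 and 213. Des went from 37.0 and 29.6 to 283 and 264, and Kdr from 16.0 and 20.1 to 68.5 and 74.9. Krt8 went from 396 and 413 to 125 and 117, and Tubb3 from 912 and 856 to 775 and 742. The sums of these lists moved with genistein. Summed over 4 genes each, the endothelial list was 25.0 and 30.7 against 85.3 and 97.2, the macrophage list 209.8 and 192 against 546 and 569.9, the muscle list 37.0 and 31.8 against 286 and 265, the epithelial list 452 and 462 against 137 and 131, and the neural list 1328 and 1212 against 1115 and 1049. Their part in the changes of the p53 genes was not tested.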

How the data were processed

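Total RNA of MEF cells was depleted of ribosomal RNA and sequenced as paired reads from stranded libraries. The authors used Trim Galore for trimming and STAR for alignment to mm10, in which reads that map to many places were allowed, and counted genes (Gencode M9) and repeats with TEtranscripts in 1 table. The deposited values are raw counts per gene or repeat for 4 libraries, with 49383 entries, of which 47937 are genes, 1445 are repeats and 1 has no name. The unnamed entry held at most 0.00314% of a library and was left out. Whether strand was used in counting is not given in the sources used here. Symbols matched 47224 gene identifiers.

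Here, entries were filtered by filterByExpr (16240 genes and 1118 repeats kept), scaled by TMM and tested with the quasi-likelihood test of edgeR (version 4.0.16, R 4.3.3), and p-values were adjusted by the Benjamini-Hochberg method over all 17358 kept entries. This differs from the study, which used DESeq2. Standard errors are the absolute log2 fold change divided by the square root of F, and intervals are at 95%. The test shares information on spread between entries, so that its p-values and standard errors do not rest on the libraries of a single gene alone. The fit was tested on simulated data in which a small part of the entries changed, as many up as down. That simulation does not bear on how the balance of all genes depends on the scaling. Libraries of a group differed by more than their sampling (a chi-square over genes of 3.61 per degree of freedom for untreated and 7.59 for genistein), so that all 4 libraries were kept as separate samples. Exon lengths and positions come from a later GENCODE annotation of the same assembly, and 47310 genes had a length. A length counts every base in any annotated exon of a gene, so that levels compared between genes depend on the annotation. Alternatives were other scalings, no filter, genes alone, DESeq2 (version 1.42.0), a replicate block, a test against a log2 fold change of 1, leaving out each library and other mismatch limits.

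The 10 genes and all lists were chosen with earlier results of these data known, so that their counts are descriptions. Of each other list, up to 4 higher and 4 lower genes with an adjusted p under 0.05 and the largest absolute log2 fold change are named, and Cdkn2a, Trp63, Trp73, Cdkn1b, Cdkn1c, Ccng2, Plk3 and Phlda1 were named whatever their values. Dram1, Ccnb1, Phlda2, Gtse1 and Rps27l were named after their values were seen, as were the marker genes.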

Additional observations from a re-analysis of the deposited data

How the results depend on the processing

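All 10 genes kept their direction and an adjusted p under 0.05 in the 11 alternative fits, and with the test against a log2 fold change of 1 the genes past the filters of the study numbered 6 in place of 7, without Ppm1d. The log2 fold change ranged most widely for Zmat3, from 1.56 to 1.80. It ranged from 2.72 to 2.85 for Cdkn1a, 2.10 to 2.20 for Ccng1, 2.09 to 2.20 for Btg2 and 1.59 to 1.69 for Mdm2. The range was 1.13 to 1.23 for Phlda3, 1.01 to 1.11 for Ppm1d and 0.48 to 0.58 for Mdm4. For Plk2 it was -0.30 to -0.19 and for Trp53 -0.36 to -0.23. Medians moved with the scaling. With library totals alone they were 1.46 for the 10 genes, 1.16 for other p53 targets, 0.052 for regulators, 0.00071 for relatives, -0.59 for p21 partners, -0.27 for DREAM genes and 0.037 for all genes, so that regulators, relatives and all genes changed sign, as did Phlda1 (0.028). With TMM factors from genes alone, and with genes tested without repeats, these medians were 1.44, 1.14, 0.026, -0.025, -0.62, -0.30 and 0.011, so that regulators and all genes changed sign, and Phlda1 stood at 0.0027 and 0.0028. With RLE size factors the median of all genes was -0.042. Without a filter the medians were 1.37 for the 10 genes, 1.07 for other targets, -0.095 for relatives and -0.059 for all genes, and with DESeq2 they were 1.07, -0.094 and -0.058 for the last 3. Leaving out each library gave medians of 1.36 to 1.41 for the 10 genes, -0.078 to -0.021 for regulators, -0.11 to -0.042 for relatives and -0.040 to -0.030 for all genes, 0 to 1 p21 partners higher, and -0.14 to 0.055 for Phlda1. With 0 mismatches allowed, 0 of the 10 genes held a consensus match, and 3 windows of all genes did. The cause of these shifts was not tested, other than that fewer mismatches leave fewer windows.

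Samples with the same replicate number did not deviate together (correlation -0.03), so that the numbers are not shown to pair the samples. With the replicate block, Ccnd2 was lost (adjusted p = 0.052, edgeR) and 0 p21 partners were higher, and Cdkn1b was lost (adjusted p = 0.066, edgeR). Beside Ccnd2 and Cdkn1b, Cdkn2a was the third named gene that lost its call in some setting, with adjusted p-values up to 0.210 (library totals, edgeR). All genes called with an adjusted p under 0.05 numbered 5436 higher and 6210 lower of 16240 with edgeR and the filter. Over the 25636 genes left without a filter they numbered 5494 and 6521 with edgeR and 3773 and 5317 with DESeq2.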
